A study of Homo sapiens with 4 samples.

Results

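Ribosome biogenesis and nucleolar genes were followed in LASCPC-01 cells treated with PBS or with fluoxetine. The 38 genes were taken from a list of nucleolar and pre-rRNA processing genes known to respond to MYC. The list was chosen with earlier results of these data known. All 38 were among the 16376 genes of the deposited expression table. LASCPC-01 is a neuroendocrine prostate cancer (NEPC) cell line that was generated with NMYC and activated AKT1, so both groups carry these drivers, and its genotype is labelled WT in all samples. The control group was treated with PBS, and the other group with fluoxetine, an antidepressant that blocks serotonin reuptake. The titles of the fluoxetine libraries carry the letters PP, which the labels do not explain, and the group was taken from the treatment label. The sample labels give day 3 for all 4 libraries and no dose, whereas the study's text gives 5 µM for 48 h. Each group had 2 libraries of this single line, and nothing in the labels says that they came from separate cultures, so p-values measure the spread between these libraries, which may be technical.

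Ribosome production starts in the nucleolus, where RNA polymerase I transcribes the ribosomal DNA into a long precursor RNA. Small nucleolar ribonucleoproteins modify and help to cut this precursor, and assembly factors build it into the small and the large ribosomal subunit. MYC family proteins bind the E-box sequence CACGTG and are known activators of many of these genes, and growth signalling through AKT and mTOR also drives the process. The measured values are levels of the mRNAs of the proteins involved. The precursor rRNA itself was not analysed here.

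Values were FPKM, the fragments on a gene relative to its length and to the library total. The depth behind the FPKM, as recovered from the values, was 32873603 to 34831389 reads, and the members had between 410 and 82632 reads in a library. They are smallest solutions in whole reads, and the true numbers can be multiples of them. The FPKM of a gene depends on the exon length that the authors used. That length was recovered along with the reads, and a recovered length can be a fraction of the true one. The median recovered length was 2454.5 bases for the members, against 3840 bases over the 12663 genes tested. The test was limma's, on log2(FPKM + 0.1) values, and a log2 fold change is the fluoxetine mean minus the PBS mean on that scale. MYCN, the driver of the line, stood at 369.7 and 386.5 FPKM after PBS, against 323.1 and 363.6 FPKM after fluoxetine, with a log2 fold change of -0.14 (standard error, SE, 0.085, adjusted p = 0.624 in limma). Of the neuroendocrine markers, NCAM1 and INSM1 were at or above 21.7 FPKM in every library, whereas SYP was at or below 0.629 FPKM and CHGA at or below 0.0886 FPKM. Of the luminal prostate markers, KLK3 was at or below 0.256 FPKM, while TMPRSS2 was at 13.5 to 14.8 FPKM. The leukocyte gene PTPRC and the fibroblast gene PDGFRB did not exceed 0.0318 FPKM, and COL1A1 was at 1.83 to 2.75 FPKM.

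Many members carried the E-box CACGTG close to an annotated start of the gene. RefSeq promoter sequences of GRCh38.p14, from 250 bases before to 50 bases after the start, were found for 32 of the 38 members. CACGTG, which reads the same on both strands, stood in a promoter of 14 of the 32 members (43.8%), against 12.7% of the 10250 tested genes with a promoter in the table. The sequence CACGCG, searched on both strands, was found for 34.4% of the members and 22.3% of the genes tested. Of the 15 copies of CACGTG in the member promoters, 14 began within 40 bases of the start. A copy lying wholly within that distance was found for 13 of the 32 members (40.6%) and for 4.06% of the genes tested, a distance that was chosen after the positions were seen. Before the start alone, the share of members with the motif was 9.38%, against 11.4% of the genes tested. Because the members were picked as MYC-responsive genes, the motif is a description of the list and not a separate result. The 11 stretches below run from 30 bases before to 25 bases after the start, and they are shown because each holds the motif, in capitals, close to the start.
FBL, chr19:39846355-39846409, minus strand: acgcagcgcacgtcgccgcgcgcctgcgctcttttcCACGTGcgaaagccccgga
RRP9, chr3:51941880-51941934, minus strand: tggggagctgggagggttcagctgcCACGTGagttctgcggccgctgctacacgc
NOP10, chr15:34343112-34343166, minus strand: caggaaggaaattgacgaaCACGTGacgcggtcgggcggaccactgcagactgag
GNL3, chr3:52686002-52686056, plus strand: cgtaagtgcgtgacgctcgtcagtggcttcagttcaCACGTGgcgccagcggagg
UTP4, chr16:69132619-69132673, plus strand: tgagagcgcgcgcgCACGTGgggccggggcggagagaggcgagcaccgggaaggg
UTP20, chr12:101280075-101280129, plus strand: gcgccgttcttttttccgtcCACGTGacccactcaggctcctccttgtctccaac
WDR43, chr2:28894637-28894691, plus strand: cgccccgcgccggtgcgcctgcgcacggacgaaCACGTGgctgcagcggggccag
PNO1, chr2:68157858-68157912, plus strand: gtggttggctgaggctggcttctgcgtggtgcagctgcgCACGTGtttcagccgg
NOP14, chr4:2963382-2963436, minus strand: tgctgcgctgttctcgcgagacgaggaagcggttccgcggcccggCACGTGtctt
PES1, chr22:30591886-30591940, minus strand: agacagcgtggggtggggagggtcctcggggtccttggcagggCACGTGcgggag
MRTO4, chr1:19251775-19251829, plus strand: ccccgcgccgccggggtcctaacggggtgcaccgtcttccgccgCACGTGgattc
The other members with the motif were GAR1, BYSL and NOP2, in which it began 32, 29 and 36 bases after the start. GNL3 and GAR1 each had another promoter without the motif, at the beginning of the gene. The starts used for PES1 and BYSL lay inside the gene as RefSeq places it. The 14 members with the motif had a median log2 fold change of 0.10 and 10 of them were higher in fluoxetine, and the 18 without it had a median of 0.07 with 14 higher.

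No member passed the test between fluoxetine and PBS. All 38 members were above the minimum mean of 0.1 FPKM and were tested, and 0 of them had an adjusted p under 0.05 from limma, where 0.237% of all genes tested had one. Their adjusted p ranged from 0.535 to 0.997. In bulk samples such as these, a difference in the number of cells of a type and one in RNA per cell cannot be told apart. The values leaned towards slightly higher levels with fluoxetine: 30 members (78.9%) were higher and 8 were lower, where 43.5% of all genes tested were higher. The median log2 fold change was 0.08, a difference of 5.9%, against -0.02 over all genes tested. Because the members were chosen with earlier results of these data known, this lean is a description of the list. Single values lay between -0.09 for UTP20 and 0.27 for PPAN. The 95% intervals from limma were made for each member on its own, at this scaling of the values, and do not hold for all members jointly. The lowest bound was -0.33, or 20.4% lower, and the highest was 0.50, or 41.5% higher. The interval included 0 for 32 members.

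Before adjustment, 6 members had a p under 0.05, namely PPAN, GAR1, RRP9, RRP1, NOP16 and MRTO4. All 6 were higher in fluoxetine, and 0 members were lower with such a p. Out of all genes tested, 3.73% were higher with such a p and 4.79% were lower with one. With limma voom on the recovered reads, 5 members had an unadjusted p under 0.05 and 0 an adjusted one. The share of all genes with such an unadjusted p was not counted with voom, and the shares above are from the fit on FPKM. Both fluoxetine libraries were above both PBS libraries for 18 of the 38 members, against 16.7% of all genes tested. Both were below for 1 of the 38, WDR43, against 24.8% of all genes. With 2 libraries against 2, the smallest p that an exact permutation test (two-sided) can give is 0.33.

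**Figure D1:**
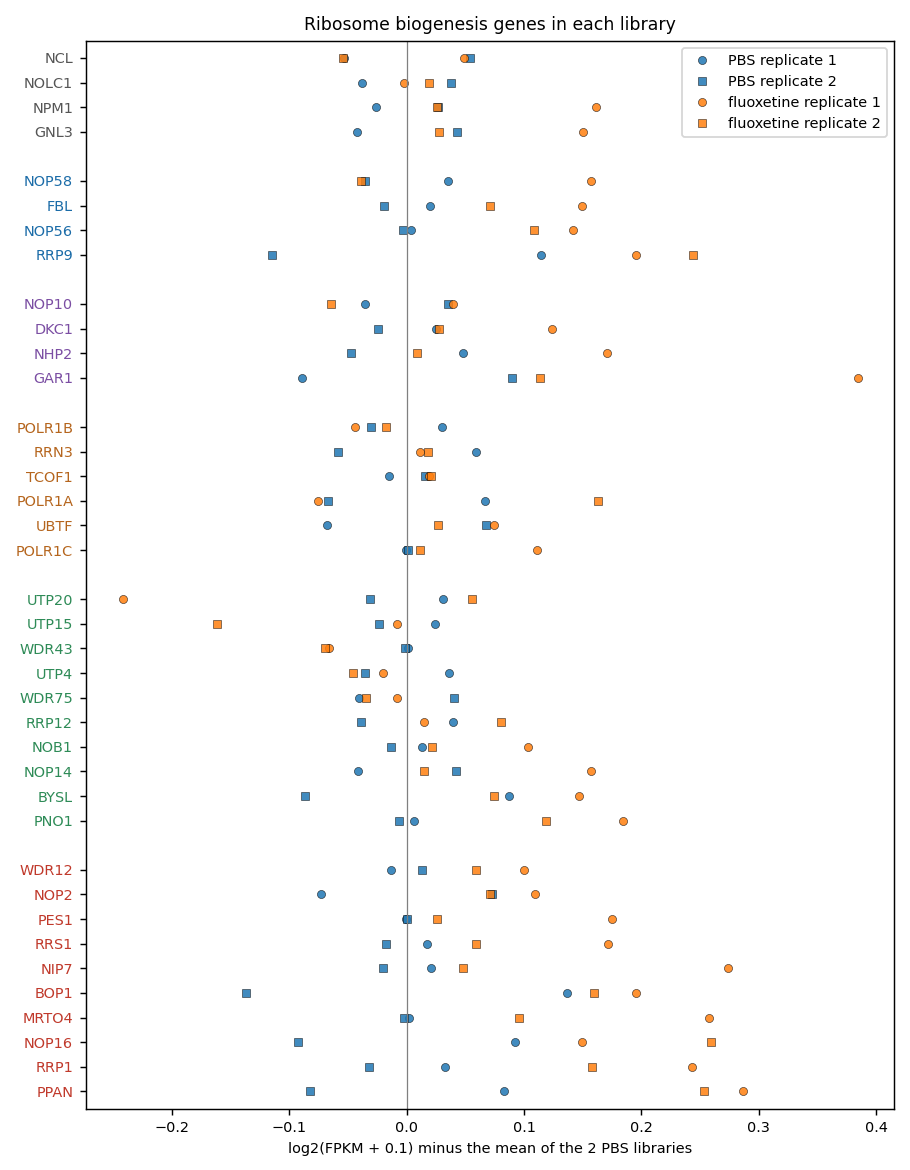
Each row is a member and each point is a library, placed by its log2(FPKM + 0.1) minus the mean of the 2 PBS libraries of that gene (circles, replicate 1; squares, replicate 2; blue, PBS; orange, fluoxetine). Gene names are coloured by role. Fluoxetine replicate 1 is the highest library for 24 of the 38 members, and the large subunit factors at the foot of the plot have the most fluoxetine points to the right of both PBS points.

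The 4 nucleolar proteins included the most abundant members, NPM1 and NCL. Of the 4, 3 were higher in fluoxetine and 1 was lower, with log2 fold changes between -0.003 and 0.09, and the groups overlapped in each. NPM1, nucleophosmin, a chaperone that forms the outer compartment of the nucleolus, lies on chromosome 5 from 171387116 to 171410900 (RefSeq genes of GRCh38.p14, used for all positions below). It stood at 961.3 and 997.2 FPKM after PBS, against 1095.0 and 996.6 FPKM after fluoxetine. Fluoxetine replicate 2 lay within the PBS range, so the groups overlapped, and the log2 fold change was 0.09 (95% interval -0.11 to 0.30). NPM1 has many processed pseudogenes in the genome, so its count is uncertain where reads were shared with them.

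NCL, nucleolin, which binds the precursor rRNA, lies on chromosome 2 from 231453531 to 231464484. It stood at 482.5 and 520.0 FPKM after PBS, against 518.3 and 482.4 FPKM after fluoxetine. Each group had a high and a low library of nearly the same level, and the log2 fold change was -0.003 (95% interval -0.19 to 0.18). Together, NPM1 and NCL made up 40.2% of the summed FPKM of the 38 members.

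NOLC1, a chaperone of small nucleolar ribonucleoproteins, stood at 101.3 and 106.7 FPKM after PBS, against 103.8 and 105.4 FPKM after fluoxetine. The fluoxetine libraries lay inside the PBS range, with a log2 fold change of 0.01 (95% interval -0.15 to 0.16). GNL3, nucleostemin, a GTP-binding nucleolar protein abundant in stem and cancer cells, stood at 104.3 and 110.7 FPKM after PBS, against 119.3 and 109.5 FPKM after fluoxetine. Its groups overlapped as well, and the log2 fold change was 0.09 (95% interval -0.08 to 0.25).

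The box C/D particle carries out 2′-O-methylation of rRNA. All 4 of its members were higher in fluoxetine, with a median log2 fold change of 0.12, and for 3 of them both fluoxetine libraries were above both PBS libraries, an order that 16.7% of all genes tested had. FBL, fibrillarin, the methyltransferase of the particle, lies on chromosome 19 from 39834458 to 39846379. It stood at 290.7 and 282.9 FPKM after PBS, against 318.1 and 301.2 FPKM after fluoxetine. Both fluoxetine libraries were above both PBS libraries, and the log2 fold change was 0.11 (95% interval -0.06 to 0.28, adjusted p = 0.668 in limma).

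NOP56 and NOP58 are the paired scaffold proteins of the same particle. NOP56 stood at 192.2 and 191.3 FPKM after PBS, against 211.5 and 206.8 FPKM after fluoxetine, a log2 fold change of 0.13 (95% interval -0.03 to 0.28) with no overlap. NOP58 stood at 69.3 and 66.0 FPKM after PBS, against 75.4 and 65.8 FPKM after fluoxetine, and its groups overlapped. The level of NOP56 was thus above that of NOP58 in every library, and FBL was above both, on the FPKM scale, which is per length.

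RRP9 is a protein of the U3 particle, which is needed for the early cuts of the precursor. It lies on chromosome 3 from 51933429 to 51941904. It stood at 50.6 and 43.1 FPKM after PBS, against 53.5 and 55.3 FPKM after fluoxetine. PBS replicate 2 was the low library, and the log2 fold change of 0.22 (95% interval 0.04 to 0.40, adjusted p = 0.535 in limma) was 0.11 without it.

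The box H/ACA particle turns uridines of rRNA into pseudouridines, and its 4 proteins also belong to telomerase. Of these, 3 were higher in fluoxetine and 1 was lower, with a median log2 fold change of 0.08. DKC1, dyskerin, the pseudouridine synthase, stood at 67.2 and 64.9 FPKM after PBS, against 72.0 and 67.3 FPKM after fluoxetine, a log2 fold change of 0.08 (95% interval -0.08 to 0.23). Its second fluoxetine library stood just above its first PBS library, so that the groups did not overlap.

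GAR1, on chromosome 4 from 109815510 to 109824737, had the second largest log2 fold change of the members. It stood at 28.0 and 31.7 FPKM after PBS, against 38.9 and 32.2 FPKM after fluoxetine, and its log2 fold change was 0.25 (95% interval 0.04 to 0.46, adjusted p = 0.536 in limma). Fluoxetine replicate 1 stood apart from the other 3 libraries, and without it the log2 fold change was 0.11.

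NHP2, an RNA-binding core protein, stood at 196.3 and 183.7 FPKM after PBS, against 213.7 and 191.0 FPKM after fluoxetine, and the groups overlapped. NOP10, the smallest protein of the particle, stood at 254.0 and 266.7 FPKM after PBS, against 267.5 and 248.9 FPKM after fluoxetine, with overlap and a log2 fold change of -0.01 (95% interval -0.18 to 0.16). The FPKM of the 4 partners therefore ranged from GAR1 at the foot to NOP10 at the top, with an order of GAR1, DKC1, NHP2 and NOP10 that was the same in all 4 libraries.

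The genes of the RNA polymerase I machinery stayed close to the PBS level. Of 6 members, 5 were higher and 1 was lower, with log2 fold changes between -0.03 and 0.06 and a median of 0.03. UBTF, the upstream binding factor that keeps ribosomal DNA in an active state, lies on chromosome 17 from 44205040 to 44221304. It stood at 45.9 and 50.5 FPKM after PBS, against 50.7 and 49.0 FPKM after fluoxetine, a log2 fold change of 0.05 (95% interval -0.11 to 0.21) with overlap.

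POLR1A, the largest subunit of the polymerase, stood at 20.1 and 18.3 FPKM after PBS, against 18.2 and 21.5 FPKM after fluoxetine, so the highest and the lowest library both belonged to fluoxetine. POLR1B, the second largest subunit, had a log2 fold change of -0.03 (95% interval -0.22 to 0.15). POLR1C, which RNA polymerase III also uses, had a log2 fold change of 0.06 (95% interval -0.12 to 0.24). RRN3, the initiation factor through which growth signals reach the polymerase, stood at 27.8 and 25.6 FPKM after PBS, against 26.9 and 27.0 FPKM after fluoxetine. The fluoxetine values of RRN3 lay between its PBS values. TCOF1, treacle, a nucleolar partner of the polymerase, differed between its lowest and highest library only from 35.7 to 36.7 FPKM, and its log2 fold change was 0.02 (95% interval -0.13 to 0.17).

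The small subunit factors were divided, with 5 higher and 5 lower in fluoxetine and a median log2 fold change of 0.01. UTP4, UTP15, WDR43 and WDR75, subunits of the complex that first assembles on the nascent precursor, had log2 fold changes of -0.03, -0.09, -0.07 and -0.02, and the groups overlapped in all but WDR43. Outside the members, NOL11 and HEATR1 of the same complex were at 0.03 and -0.06. WDR43 stood at 45.2 and 45.1 FPKM after PBS, against 43.1 and 43.0 FPKM after fluoxetine. Its replicates were nearly equal and its groups did not overlap, and its 95% interval was -0.22 to 0.08, since limma draws the spread of each gene towards that of all genes.

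UTP20, a large scaffold protein of the small subunit processome, stood at 9.52 and 9.11 FPKM after PBS, against 7.86 and 9.68 FPKM after fluoxetine. Its fluoxetine libraries lay on opposite sides of the PBS values, with a log2 fold change of -0.09 (95% interval -0.33 to 0.14). NOP14, another processome component, and RRP12, a factor in export of the subunits, had log2 fold changes of 0.09 and 0.05 with overlap.

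NOB1, the endonuclease that makes the last cut at the end of 18S rRNA, was the small subunit factor with the highest level and lies on chromosome 16 from 69741871 to 69754926. It stood at 61.2 and 60.1 FPKM after PBS, against 65.1 and 61.5 FPKM after fluoxetine. The groups did not overlap, and the log2 fold change was 0.06 (95% interval -0.09 to 0.22). PNO1, its partner in the late precursor, stood at 12.6 and 12.5 FPKM after PBS, against 14.3 and 13.6 FPKM after fluoxetine, with no overlap and a log2 fold change of 0.15 (95% interval -0.03 to 0.33). BYSL, bystin, another late factor, had a log2 fold change of 0.11 with overlap.

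The large subunit factors showed the widest lean of the 6 roles. All 10 were higher in fluoxetine, at a median log2 fold change of 0.17, from 0.08 for WDR12 to 0.27 for PPAN. Both fluoxetine libraries were above both PBS libraries for 9 of the 10, NOP2 being the exception, where 16.7% of all genes tested had this order. None passed the test after adjustment, and whether this role differs from the other roles was not tested.

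PES1, BOP1 and WDR12 form the PeBoW complex, which is needed for processing of the large subunit rRNAs. BOP1, the scaffold of the complex, stood at 93.6 and 77.4 FPKM after PBS, against 97.4 and 95.1 FPKM after fluoxetine. PBS replicate 2 stood below the other 3 libraries, and the log2 fold change of 0.18 (95% interval -0.02 to 0.37, adjusted p = 0.598 in limma) was 0.04 without it. PES1 stood at 33.4 and 33.5 FPKM after PBS, against 37.8 and 34.1 FPKM after fluoxetine, a log2 fold change of 0.10 (95% interval -0.07 to 0.27). WDR12 stood at 12.5 and 12.7 FPKM after PBS, against 13.5 and 13.1 FPKM after fluoxetine, a log2 fold change of 0.08 (95% interval -0.10 to 0.26). The level of BOP1 was the highest of the complex in every library and that of WDR12 the lowest. The recovered exon length behind the FPKM was 8068 bases for WDR12 and 2428 bases for BOP1.

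PPAN, a factor of early large subunit assembly, lies on chromosome 19 from 10106223 to 10112012 and had the largest log2 fold change of the members. It stood at 5.43 and 4.83 FPKM after PBS, against 6.27 and 6.13 FPKM after fluoxetine, which rests on 410 to 533 reads a library. The groups did not overlap, and the log2 fold change was 0.27 (95% interval 0.04 to 0.50, adjusted p = 0.536 in limma). PPAN was the member with the lowest mean FPKM, and it shares exons with a read-through transcript to its neighbour P2RY11, so its count is uncertain.

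RRP1, a nucleolar protein of 60S assembly, lies on chromosome 21 from 43789577 to 43805293. It stood at 19.4 and 18.5 FPKM after PBS, against 22.4 and 21.1 FPKM after fluoxetine, a log2 fold change of 0.20 (95% interval 0.03 to 0.37, adjusted p = 0.536 in limma). With 1 library left out it stayed between 0.16 and 0.24, a narrower range than that of PPAN, which was 0.19 to 0.35.

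NOP16, on chromosome 5 from 176383946 to 176388598, is a nucleolar protein known as a MYC target. It stood at 80.3 and 70.7 FPKM after PBS, against 83.5 and 90.2 FPKM after fluoxetine, with no overlap. Its log2 fold change of 0.20 (95% interval 0.03 to 0.38, adjusted p = 0.538 in limma) was 0.11 without PBS replicate 2, the lowest library.

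MRTO4, which resembles a ribosomal stalk protein and holds its place during assembly, stood at 37.0 and 36.9 FPKM after PBS, against 44.2 and 39.5 FPKM after fluoxetine. Its log2 fold change was 0.18 (95% interval 0.01 to 0.35, adjusted p = 0.557 in limma), and fluoxetine replicate 1 was the higher of the treated libraries. Fluoxetine replicate 2 alone lay 0.10 above the PBS mean on the log2 scale. NIP7, RRS1 and NOP2, the last of which methylates a cytosine of 28S rRNA, had log2 fold changes of 0.16, 0.12 and 0.09, each with a 95% interval that included 0.

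**Figure D2:**
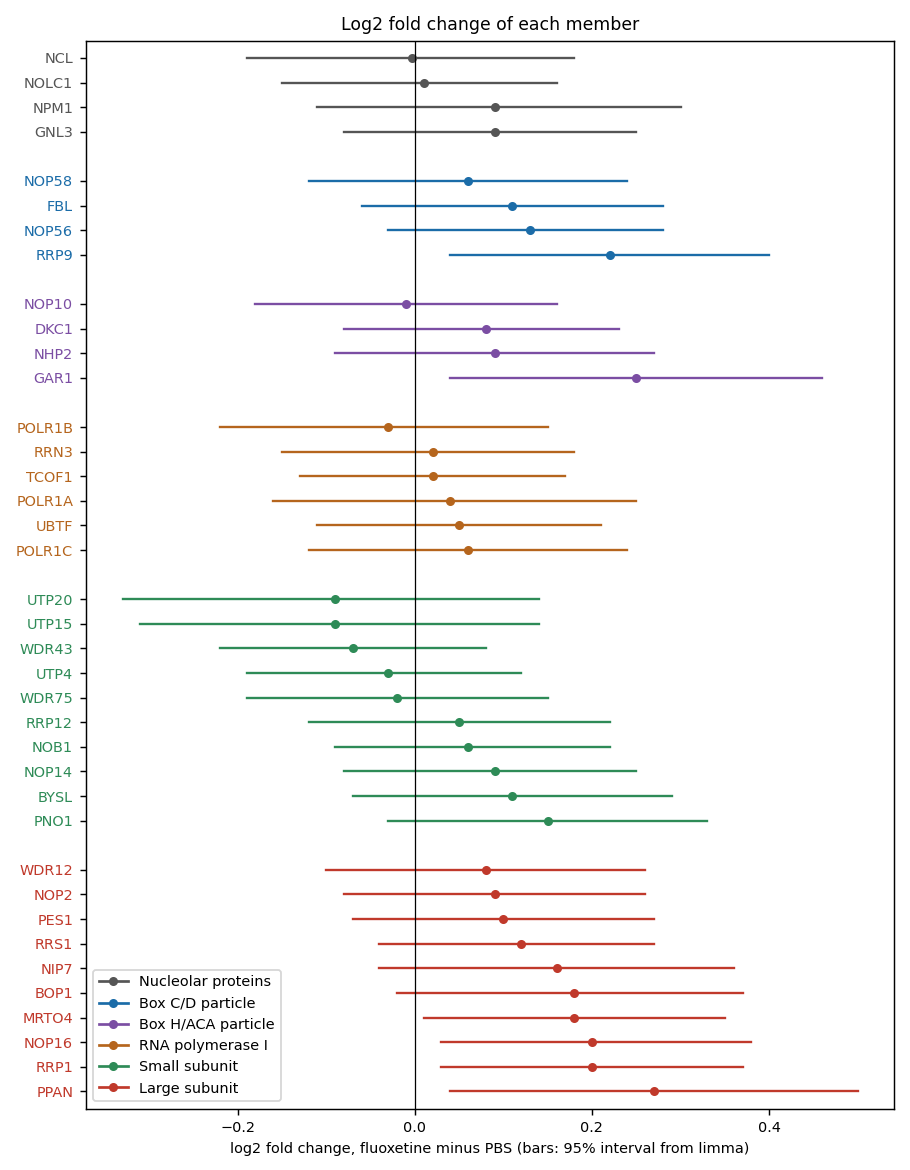
Points give the log2 fold change, fluoxetine minus PBS, of each of the 38 members, and bars its 95% interval from limma, coloured by role. All 10 large subunit factors lie to the right of 0, and no interval reaches below -0.33 or above 0.50.

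The lean towards fluoxetine was unequal between the libraries. Both fluoxetine libraries were above the PBS mean for 30 members each, but fluoxetine replicate 1 was the highest of the 4 libraries for 24 members, and fluoxetine replicate 2 for 6. PBS replicate 2 was the lowest for 17 members and PBS replicate 1 for 12. The members' summed level was 3648.1 and 3685.8 FPKM with PBS and 3987.7 and 3739.2 FPKM with fluoxetine. The groups did not overlap in this sum, but as a share of the FPKM of all genes in the library it was 1.0% and 1.04% with PBS and 1.05% and 1.02% with fluoxetine, and there they did. The median log2 fold change of the members was 0.027 without fluoxetine replicate 1 and 0.133 without fluoxetine replicate 2. After rescaling to TPM, which divides by the summed FPKM of the library, the median was 0.035 against -0.07 over all genes tested. With TPM, 0 members had an unadjusted p under 0.05, and 11 in place of 18 had both fluoxetine libraries above both PBS libraries. The shares of all genes tested were not counted with TPM, so these counts cannot be read as changes in the members alone.

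Gene length moved with this pattern. Across all genes tested, which are not independent replicates, deviations from each gene's own mean had a correlation with log2 length of -0.285 in fluoxetine replicate 1, and of 0.189 in PBS replicate 2, so that short genes stood higher in the first and lower in the second. Among the 38 members, which share these libraries, the log2 fold change correlated with log2 length at -0.46 and with log2 mean FPKM at 0.04, given as descriptions. The 19 shorter members had a median of 0.11 with 17 higher, and the 19 longer ones 0.04 with 13 higher. After the length trend of each library was removed, the medians were 0.06 and 0.08, and the correlation with length was 0.22. The median of all 38 members was then 0.06, against -0.002 over all genes tested, with 32 members higher. At that setting 2 members, PPAN at 0.25 and RRP1 at 0.20, had an unadjusted p under 0.05, and 0 had an adjusted one. The share of all genes tested with such an unadjusted p was not counted there. The large subunit factors had a median of 0.12 with the trend removed, and the small subunit factors were at 0.00. In the box C/D particle the median became 0.05 and in the box H/ACA particle 0.02. NOP10, with the shortest recovered length of 507 bases, was at -0.15.

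**Figure D3:**
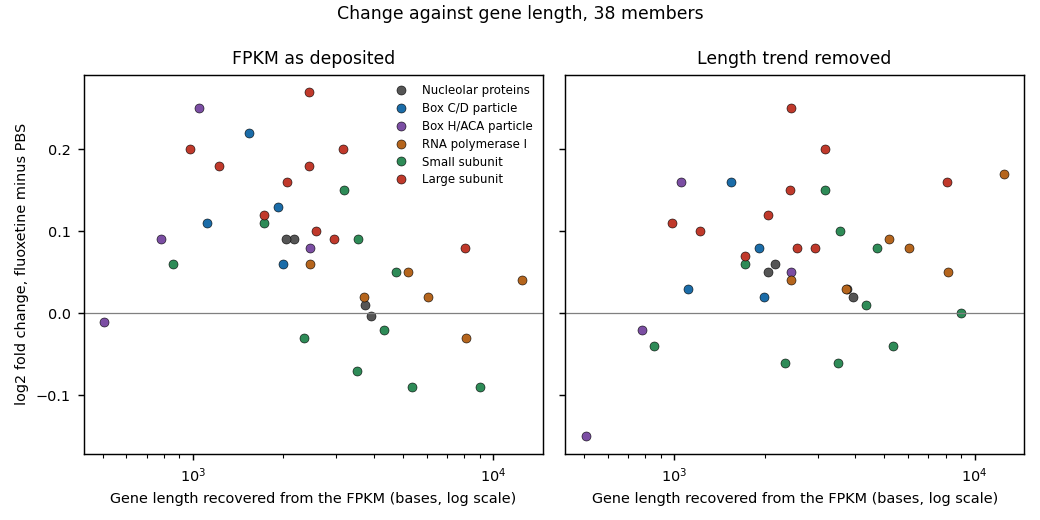
The log2 fold change of each member, fluoxetine minus PBS, is plotted against the gene length recovered from the FPKM on a log axis, from the FPKM as deposited on the left and with the length trend of each library removed on the right. The correlation over the 38 members is -0.46 on the left and 0.22 on the right.

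The other genes of the pathway leaned slightly higher too, with a smaller median than the members, and none passed the test. Of 142 further ribosome biogenesis genes, all tested, 90 were higher and 52 lower in fluoxetine, where 43.5% of all genes tested were higher. Their median log2 fold change was 0.03, and 0 had an adjusted p under 0.05 from limma. Before adjustment 12 had a p under 0.05, all of them higher, where 3.73% of all genes tested were higher and 4.79% lower with such a p, and the smallest adjusted p was 0.329. Both fluoxetine libraries were above both PBS libraries for 41 of the 142, and below for 18 of the 142. The shares of all genes tested were 16.7% above and 24.8% below. The median of these genes was -0.014 with TPM, against -0.07 over all genes tested. By role, 34 of 49 small subunit genes, 35 of 55 large subunit genes, 5 of 11 polymerase I genes, 6 of 8 box C/D genes, 1 of 2 box H/ACA genes and 9 of 17 exosome and nuclease genes were higher. The respective medians were 0.03, 0.05, -0.02, 0.06, 0.07 and 0.04.

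EXOSC4, a subunit of the RNA exosome that trims rRNA precursors, had the smallest p. It stood at 46.0 and 41.6 FPKM after PBS, against 55.6 and 51.1 FPKM after fluoxetine, and its log2 fold change was 0.29 (SE 0.079, adjusted p = 0.329 in limma). ZNHIT3, an assembly factor of box C/D particles, had the largest log2 fold change of these genes with a mean of at least 1 FPKM, 0.37 (SE 0.139, adjusted p = 0.532), from 7.44 and 5.31 FPKM with PBS to 8.58 and 7.73 FPKM with fluoxetine. ZNF622, which acts in maturation of the 60S subunit, had a log2 fold change of 0.28 (SE 0.085, adjusted p = 0.407). At the other end, C1D, an exosome cofactor, had -0.18 (SE 0.109), TAF1B, a subunit of the polymerase I selectivity factor, -0.17 (SE 0.127), and RIOK3, a kinase found on 40S precursors, -0.16 (SE 0.093), each with an adjusted p over 0.6 from limma.

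Most ribosomal protein genes were also higher in fluoxetine. Of 81 cytosolic ribosomal protein genes tested, 79 were higher in fluoxetine, with a median log2 fold change of 0.15. Of 78 mitochondrial ones 65 were, with a median of 0.08, where 43.5% of all genes tested were higher. The cytosolic median was 0.066 without PBS replicate 2, 0.231 without PBS replicate 1 and 0.063 with quantile normalization. None of either list had an adjusted p under 0.05 from limma. An unadjusted one was found for 11 of each, all of them higher, where 3.73% of all genes tested were higher with such a p. The cytosolic ribosomal protein genes had a median recovered length of 1070 bases. Their median log2 fold change became 0.07 with the length trend removed, whereas that of the mitochondrial list became 0.02. The medians of the members and of the cytosolic ribosomal proteins were thus 0.06 and 0.07 at that setting, and their difference was not tested.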

How the data were processed

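The values deposited by the authors were FPKM of 16376 genes in the 4 libraries. The submitters' processing notes list fastp, HISAT2, HTSeq and GRCh38, with no roles or versions, and the annotation is not given in the sources used here. For the library kit, the labels give TruSeq Stranded mRNA and the paper gives another. The members and lists were chosen with earlier results of these data known.

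Reads were solved as the smallest whole numbers whose ratios gave the FPKM ratios (within 0.002 of a whole number), and 51 genes with a matching exon length in GENCODE 29 set the depth. All 16080 genes above 0 were solved. Groups were compared by limma 3.58.1 (R 4.3.3), using lmFit and trended eBayes, for the 12663 genes averaging at least 0.1 FPKM, as log2(FPKM + 0.1), with Benjamini-Hochberg adjustment over all of them. FPKM are not counts, so DESeq2, which the paper names, was not used. Scripts were tested on simulated data. Some marker genes are not reported here. Tables and figures were made in Python 3.11.15.

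Replicates had a Pearson r across genes of 0.993 for PBS and 0.994 for fluoxetine. Counting noise alone would give a chi-square per degree of freedom near 1, and their reads gave 9.55 and 11.6. The libraries of a group thus differed by more than counting noise, which can be technical and does not show separate cultures. They were counted as separate samples in the tests. All members are named, and values in every library were due to the 8 with the highest mean FPKM, the 6 with the largest absolute log2 fold change and the highest of each role, and were added for others after their values were seen. Alternatives were other pseudocounts and filters, quantile normalization, TPM, centring on the median, robust or untrended eBayes, the replicate block, removal of the length trend (lowess, span 0.3), each library left out, and limma voom on recovered reads, the last chosen after seeing the data.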

Additional observations from a re-analysis of the deposited data

How the results depend on the processing

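The count of 0 members and of 0 other pathway genes with an adjusted p under 0.05 held at all 17 alternatives, which include a replicate block. The deviations of libraries with the same number had a correlation of 0.0351, so the numbers were not taken to pair the samples, and with the replicate block 64 genes of all those tested had an adjusted p under 0.05 in place of 30. That count was 0 without the filter on low values and without the variance trend, 16 with quantile normalization, 51 with voom, and 2 to 12 with 1 library left out, where a lone library is assumed to vary like the other group. The 6 members with an unadjusted p under 0.05 became 2 without the filter, 0 with TPM and 1 without the variance trend. They became 2 with the length trend removed, with or without the replicate block. The share of all genes tested with such a p was not counted at these settings, so the drops cannot be read as changes in the members alone. The members' median log2 fold change was 0.083, against -0.021 over all genes tested. It was 0.035 against -0.07 with TPM, and 0.035 against -0.003 with quantile normalization. With 1 library left out, the members' median lay between 0.027 and 0.133. The members with both fluoxetine libraries above both PBS libraries were 11 with TPM in place of 18, and the share of all genes tested was not counted there. The median of the other pathway genes, 0.034, was -0.014 with TPM and 0.009 to 0.078 with 1 library left out, and that of the mitochondrial ribosomal proteins was 0.011 to 0.141. The share of members with CACGTG fell from 43.8% to 9.38% when the bases after the start were left out, since most copies lie there.

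Of the 16 members with values due in every library, some near 0 changed sign. NCL was at 0.02 with median centring and with the length trend removed (with or without the block), and reached 0.05 with 1 library left out, from -0.06. NPM1 was at -0.05 and FBL at -0.01 with quantile normalization. NOLC1 was at -0.04 with TPM, at -0.06 with quantile normalization and from -0.03 to 0.05 with 1 library left out. NHP2 was at -0.02 and NOB1 at -0.04 with the length trend removed, where the recovered length of NOB1, 858 bases, may be a fraction of the true one. NOP10 was at 0.01 with median centring and from -0.06 to 0.04 with 1 library left out, and UBTF from -0.02 to 0.12. The cause of these changes was not tested.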
